A study of Mus musculus with 12 samples.

Results

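The genes described here encode the nuclear-encoded subunits of the oxidative phosphorylation machinery. They were chosen by symbol (names starting with Nduf and then a, b, c, s or v and a digit, Sdha to Sdhd, and names starting with Uqcr, Cyc1, Cox4 to Cox8 or Atp5) and by a mean of at least 1 FPKM in the deposited table. FPKM is the fragment count of a gene corrected for transcript length and library total. The pattern met 86 symbols, of which 83 were members in the H-Ras(G12V) table and 84 in the etoposide table, out of 18607 genes listed in either table. Of the 84 members in all, 39 belong to complex I, 4 to complex II, 9 to complex III, 15 to complex IV and 17 to complex V by symbol. Ndufa4l2 lay just inside the level threshold in the etoposide table, at a mean of 1.2 FPKM, and just outside it in the H-Ras(G12V) table, at 0.52 FPKM. Cox4i2 (0.30 and 0.35 FPKM, H-Ras(G12V) table first) and Cox7b2 (0.14 and 0.34 FPKM) lay outside in both, and the lowest member of the H-Ras(G12V) table was Cox6a2 at 3.54 FPKM.

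The libraries were made from primary neurons of C57BL/6 mice, 10 days into each treatment. The H-Ras(G12V) group over-expressed H-Ras with the G12V change, which keeps this GTPase switched on, from an adeno-associated virus. Its control, labelled wild type, carries the fluorescent protein mCherry as its treatment label. The etoposide group, wild type, was treated with etoposide, a topoisomerase II poison that breaks DNA, and the DMSO group, also wild type, with the solvent DMSO. Each group has 3 libraries. Not given in the sources used here are the promoter and species of the transgene, the delivery of mCherry, the dose of etoposide, the age of the mice and the number of cultures or animals. P-values thus reflect how far these libraries vary, and that variation may be technical. The treatment tag of the etoposide and DMSO libraries gives the opposite group to their titles and to the column names, and the groups follow the titles. The series uses both treatments as models of neuronal ageing and asks which pathways they share.

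Mouse Hras had 38.4, 51.6 and 33.5 FPKM in the H-Ras(G12V) libraries, against 45.9, 43.0 and 44.2 FPKM in the mCherry libraries. This gene does not check the labels, because the transgene sequence is not given, and the directions below hold for the libraries so labelled. Neuronal markers were present in all 12 libraries, with none of 15 at 0 and summed levels of 992 to 3400 FPKM. Markers of astrocytes (622 to 3716 FPKM over 9 genes) and of the oligodendrocyte lineage (77.9 to 1120 FPKM over 10 genes) were present as well. The word neurons after a group name below thus stands for the bulk RNA of its libraries, in which these other markers are present. Some libraries stood apart from their group over all genes. Etoposide library 3 had rank correlations of 0.969 to 0.986 with the DMSO libraries and of 0.921 and 0.946 with the other etoposide libraries. Library 3 of the mCherry group had rank correlations of 0.963 and 0.965 with the other mCherry libraries, which correlated at 0.993 with each other. With the H-Ras(G12V) libraries, mCherry library 3 had rank correlations of 0.963 to 0.968.

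Oxidative phosphorylation makes most of a neuron's ATP. Complexes I and II pass electrons from NADH and succinate to ubiquinone, complex III passes them to cytochrome c, and complex IV passes them to oxygen. Complexes I, III and IV pump protons across the inner mitochondrial membrane, and complex V, the ATP synthase, lets them flow back to make ATP. Complex II consists of the 4 Sdh subunits, and the other complexes have a catalytic core and further accessory subunits. Part of the core of complexes I, III, IV and V is encoded by mitochondrial DNA. The 13 mitochondrially encoded subunit genes were looked for by symbol, and 0 were listed in either deposited table. Some nuclear subunits exist as paralogues that take the same place in the complex. Their shares below describe bulk mRNA, not single cells or protein. Nuclear respiratory factor 1 (NRF1), the ETS factor GABPA and YY1 are known to act at promoters of many of these genes.

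The promoters of 2 paralogue sets are shown because members of these sets stood out in the results below. They span 250 bases before to 50 bases after the start in RefSeq on GRCm38.p6, and all 5 lie on the minus strand, at chr11:96075582-96075881 for Atp5g1, chr15:102670998-102671297 for Atp5g2, chr2:73911277-73911576 for Atp5g3, chr7:30626065-30626364 for Cox6b1 and chr7:4753045-4753344 for Cox6b2. Atp5g1, Atp5g2 and Atp5g3 encode the same mature c subunit of the ATP synthase ring with different import sequences, and Cox6b1 and Cox6b2 encode the common and the testis-enriched form of cytochrome c oxidase subunit 6B. Capitals mark a match on either strand to a searched motif, which were the NRF1 motif, CCGGAAG for GABPA and other ETS factors, and the YY1 motif.
Atp5g1: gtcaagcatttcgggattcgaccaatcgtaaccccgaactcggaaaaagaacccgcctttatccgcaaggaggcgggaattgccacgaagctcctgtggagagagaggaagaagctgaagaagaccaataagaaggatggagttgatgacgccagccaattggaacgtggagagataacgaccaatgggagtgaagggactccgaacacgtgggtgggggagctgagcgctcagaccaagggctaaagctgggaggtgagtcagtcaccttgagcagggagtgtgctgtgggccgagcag
Atp5g2: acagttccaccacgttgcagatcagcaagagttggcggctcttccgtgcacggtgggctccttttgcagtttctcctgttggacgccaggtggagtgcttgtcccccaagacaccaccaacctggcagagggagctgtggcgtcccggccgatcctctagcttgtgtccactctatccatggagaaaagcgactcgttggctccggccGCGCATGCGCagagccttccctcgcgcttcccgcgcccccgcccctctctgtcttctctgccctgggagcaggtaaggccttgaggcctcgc
Atp5g3: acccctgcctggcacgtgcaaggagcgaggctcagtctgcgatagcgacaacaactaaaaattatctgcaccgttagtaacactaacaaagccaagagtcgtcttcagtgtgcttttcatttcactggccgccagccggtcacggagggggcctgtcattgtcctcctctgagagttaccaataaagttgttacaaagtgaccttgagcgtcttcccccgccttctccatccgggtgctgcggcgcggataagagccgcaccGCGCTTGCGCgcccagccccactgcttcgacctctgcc
Cox6b1: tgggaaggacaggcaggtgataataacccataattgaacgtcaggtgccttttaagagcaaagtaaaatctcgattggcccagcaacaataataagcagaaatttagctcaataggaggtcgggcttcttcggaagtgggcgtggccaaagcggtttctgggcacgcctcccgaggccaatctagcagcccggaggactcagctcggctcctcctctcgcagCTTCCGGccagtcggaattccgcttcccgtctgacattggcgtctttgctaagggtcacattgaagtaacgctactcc
Cox6b2: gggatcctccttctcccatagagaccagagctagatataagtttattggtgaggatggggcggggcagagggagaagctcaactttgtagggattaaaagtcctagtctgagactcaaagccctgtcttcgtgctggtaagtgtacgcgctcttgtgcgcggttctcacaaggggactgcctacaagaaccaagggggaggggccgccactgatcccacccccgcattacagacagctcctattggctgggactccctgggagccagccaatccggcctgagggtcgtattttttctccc
The Atp5g2 and Atp5g3 windows each hold an NRF1 match and the Cox6b1 window an ETS match, while the Atp5g1 and Cox6b2 windows hold none of the 3 motifs.

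Promoter windows were found for 68 of the 84 members, with 73 windows in all. The NRF1 motif was present in 18 of the 73 member windows (24.7%), against 4.60% of 32851 windows of the same length over all genes. The ETS motif was present in 17 member windows (23.3%), against 8.86% of all windows. The YY1 motif was present in 5 member windows (6.85%), against 0.852% of all windows. Matches to different motifs did not overlap in any member window, and 33 of the 68 members had at least 1 match. Atp5k, a small membrane subunit of the ATP synthase, Atp5h, a subunit of its peripheral stalk, Cox6a1, the common form of complex IV subunit 6A, and Sdhd, a membrane anchor of complex II, each had both an NRF1 and an ETS match. A match is a description of the letters in the window and does not show binding.

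As levels, the subunits were abundant and kept nearly the same order within each comparison. Across the 83 members measured in both tables, the rank correlation of mean FPKM was 0.990 between the H-Ras(G12V) and mCherry groups and 0.982 between the etoposide and DMSO groups. In the H-Ras(G12V) group member means ran from 3.25 FPKM for Cox6a2, the heart and muscle form of complex IV subunit 6A, to 1363 FPKM for Cox7c, a small membrane subunit of complex IV, with a median of 269.7 FPKM. In the mCherry group they ran from 3.82 FPKM for Cox6a2 to 1231 FPKM for Atp5md, a small membrane subunit of the ATP synthase, with a median of 205 FPKM. Complex V had the highest median member level, at 547 FPKM in H-Ras(G12V) and 486 FPKM in mCherry neurons, and at 517 FPKM in etoposide and 573 FPKM in DMSO neurons. The 4 subunits of complex II had the lowest median, at 139 FPKM in H-Ras(G12V) and 123 FPKM in mCherry neurons, and at 126 FPKM in etoposide and 151 FPKM in DMSO neurons.

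Among subunits of complex I, Ndufa4 was the highest in all 4 groups, at 879 ± 36.4 FPKM in H-Ras(G12V) and 811 ± 145 FPKM in mCherry neurons (SD, n = 3 each). It carries a complex I name but is now placed in complex IV. Ndufa11, a membrane subunit of complex I, was the lowest in that table at 22.9 ± 6.39 FPKM in H-Ras(G12V) and 19.2 ± 1.15 FPKM in mCherry neurons. In complex III, Uqcr10 was the highest at 733 ± 79.2 FPKM in H-Ras(G12V) and 562 ± 158 FPKM in mCherry neurons, and Uqcrq the lowest at 103 ± 16.5 and 75.7 ± 9.65 FPKM in the same order. Both are small accessory subunits. Ndufb4c is close in sequence to Ndufb4, and the Atp5g genes to one another, so that the split of reads between such copies is uncertain.

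In H-Ras(G12V) neurons, 2 of the 83 subunits rose and none fell at a limma adjusted p below 0.05, where 10.3% of all 12724 tested genes were called higher, 6.67% lower and 17% either way. The 2 were Cox6b2 of complex IV and Atp5g2 of complex V. Most other subunits differed by little and in the same direction. The log2 fold change was above 0 for 76 of 83 members on FPKM as deposited, where 55.5% of all tested genes were above 0. The count was 66 with median-of-ratios scaling and 50 after scaling to a common sum. The members share 6 libraries, so their signs are not independent. The members' median log2 fold change was 0.19 as deposited, beside 0.05 over all genes. It was 0.12 beside -0.01 with median-of-ratios scaling and 0.05 beside -0.07 after scaling to a common sum. The last scaling moved the median of all genes by -0.13.

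Cox6b2 had 33.9, 50.1 and 47.9 FPKM in H-Ras(G12V) libraries 1 to 3, against 17.2, 11.0 and 15.3 FPKM in mCherry libraries 1 to 3. Every H-Ras(G12V) library was above every mCherry library. The ratio of means was 3.03 and the log2 fold change 1.54 ± 0.21 (SE, limma adjusted p = 0.00696). Over 16 alternatives its adjusted p lay between 0.00118 and 0.112, and it passed in 15, all but the single fit of the 12 libraries. Cox6b1, the common form, had 1158, 1226 and 1166 FPKM in the H-Ras(G12V) libraries, against 877, 832 and 1124 FPKM in mCherry libraries 1 to 3 (a log2 fold change of 0.34 ± 0.15, adjusted p = 0.167). The common form was thus the main one in all libraries, and Cox6b2 made up 2.84%, 3.93% and 3.94% of the Cox6b FPKM in H-Ras(G12V) libraries, against 1.92%, 1.30% and 1.35% in mCherry libraries.

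Atp5g2 had 376, 516 and 447 FPKM in the H-Ras(G12V) libraries, against 269.9, 241 and 266 FPKM in the mCherry libraries. The groups did not overlap. The ratio of means was 1.72 and the log2 fold change 0.77 ± 0.15 (SE, limma adjusted p = 0.0176). It passed in 11 of 16 alternatives, with adjusted p between 0.00386 and 0.125, and lost its call when H-Ras(G12V) library 3, mCherry library 1 or mCherry library 2 was left out, in the single fit of the 12 libraries and with mCherry libraries 1 and 2 averaged. The other c-subunit genes did not pass, with log2 fold changes of 0.33 ± 0.17 for Atp5g1 (adjusted p = 0.215) and 0.17 for Atp5g3. Atp5g2 made up 27.0%, 29.8% and 28.9% of the c-subunit FPKM in H-Ras(G12V) libraries, against 22.3%, 21.8% and 19.8% in mCherry libraries. Atp5g3 made up 54.0%, 48.9% and 54.0% in H-Ras(G12V) libraries, against 57.7%, 59.1% and 61.1% in mCherry libraries. For both shares the groups did not overlap, and the exact two-sided permutation p was 0.1, the smallest that 3 against 3 libraries can give (0.333 adjusted over the 10 shares compared in this table).

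**Figure D1:**
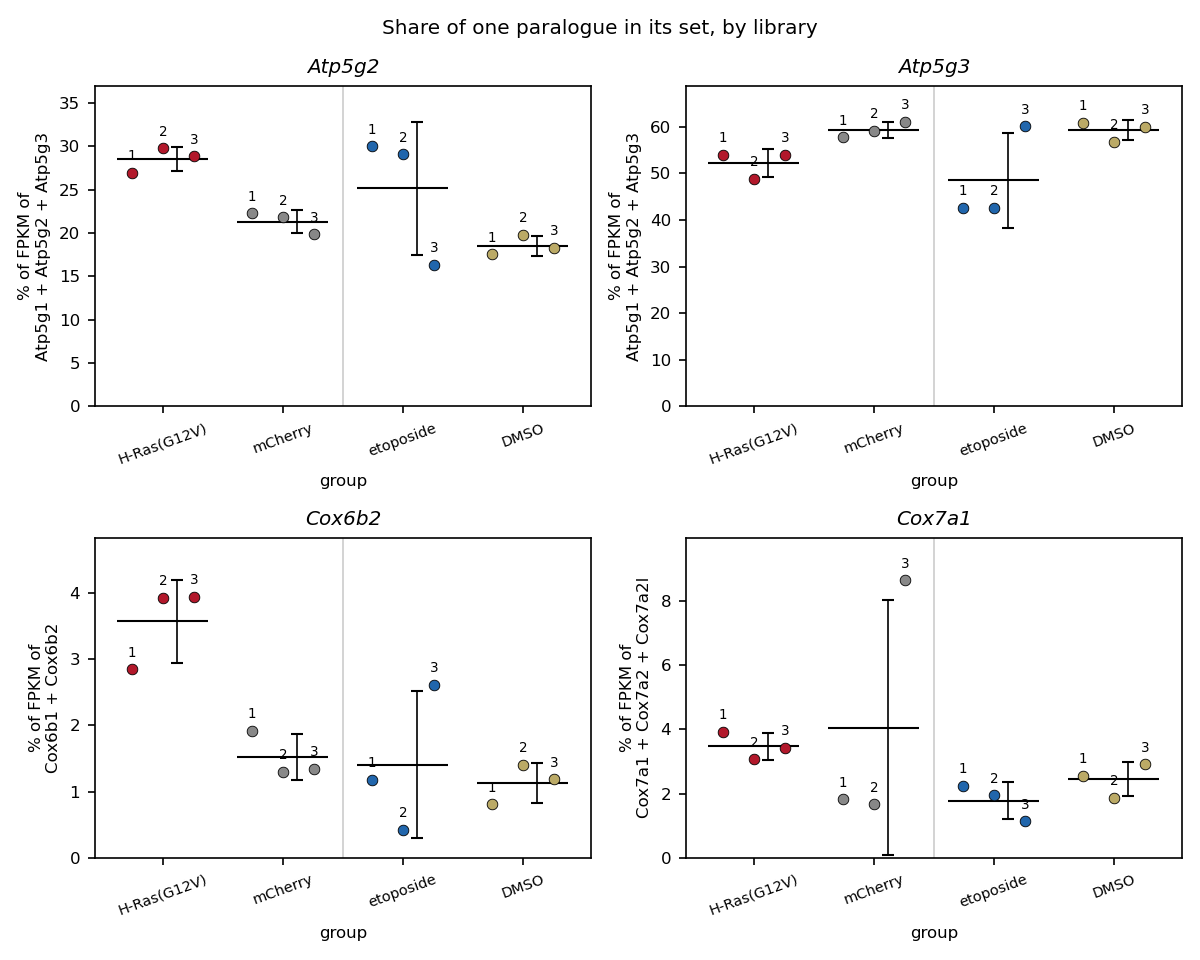
Percentage that a single paralogue takes of the FPKM of its set, by library (points numbered by library, line at the mean, bar 1 SD, n = 3 per group). Atp5g2 lies at 27.0% to 29.8% in the H-Ras(G12V) libraries, above 19.8% to 22.3% in the mCherry libraries, and at 30.0%, 29.1% and 16.3% in etoposide libraries 1 to 3, against 17.5% to 19.8% in the DMSO libraries.

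None of the other 81 subunits passed. Uqcrh, the hinge protein of complex III, came closest with 614, 681 and 672 FPKM in the H-Ras(G12V) libraries, against 488, 426 and 537 FPKM in mCherry libraries 1 to 3 (a log2 fold change of 0.44 ± 0.13, adjusted p = 0.0630). Its groups did not overlap. Ndufa2, an accessory subunit of complex I, had 176, 259 and 189.9 FPKM in H-Ras(G12V) libraries, against 133, 119 and 163 FPKM in mCherry libraries (log2 fold change 0.58, adjusted p = 0.0788). Over all members the groups did not overlap for 26 genes higher and 1 lower, where 23.7% and 16.6% of all tested genes showed this. At an unadjusted p below 0.05 there were 16 members, all higher in H-Ras(G12V), where 20.4% of all genes passed with higher levels and 34.4% in either direction. The members below 0 as deposited were Cox8b, Cox6a2, Ndufc2, Atp5j, Uqcrc2, Atp5mpl and Atp5md, with log2 fold changes between -0.24 and -0.04.

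By complex, the median log2 fold change in H-Ras(G12V) against mCherry neurons was 0.17 for complex I, 0.15 for complex II, 0.31 for complex III, 0.24 for complex IV and 0.17 for complex V. These medians stayed above 0 under both other scalings, at 0.03, 0.01, 0.17, 0.10 and 0.03 in the same order after scaling to a common sum. The core of complex I varied from 0.02 for Ndufv2 to 0.37 for Ndufs8, both iron-sulfur subunits. In complex II, Sdha, the flavoprotein, and Sdhb, the iron-sulfur subunit, had 0.10 and 0.07, and the membrane anchors Sdhc and Sdhd 0.28 and 0.20. In complex III, the Rieske iron-sulfur protein Uqcrfs1 had 0.02, cytochrome c1 (Cyc1) 0.31, and the core proteins Uqcrc1 and Uqcrc2 0.21 and -0.08. In the soluble F1 part of the ATP synthase, the alpha and beta subunits Atp5a1 and Atp5b had 0.13 and 0.08. The gamma subunit Atp5c1 had 0.12, the delta subunit Atp5d 0.46 and the epsilon subunit Atp5e 0.24. None of these core subunits passed.

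**Figure D2:**
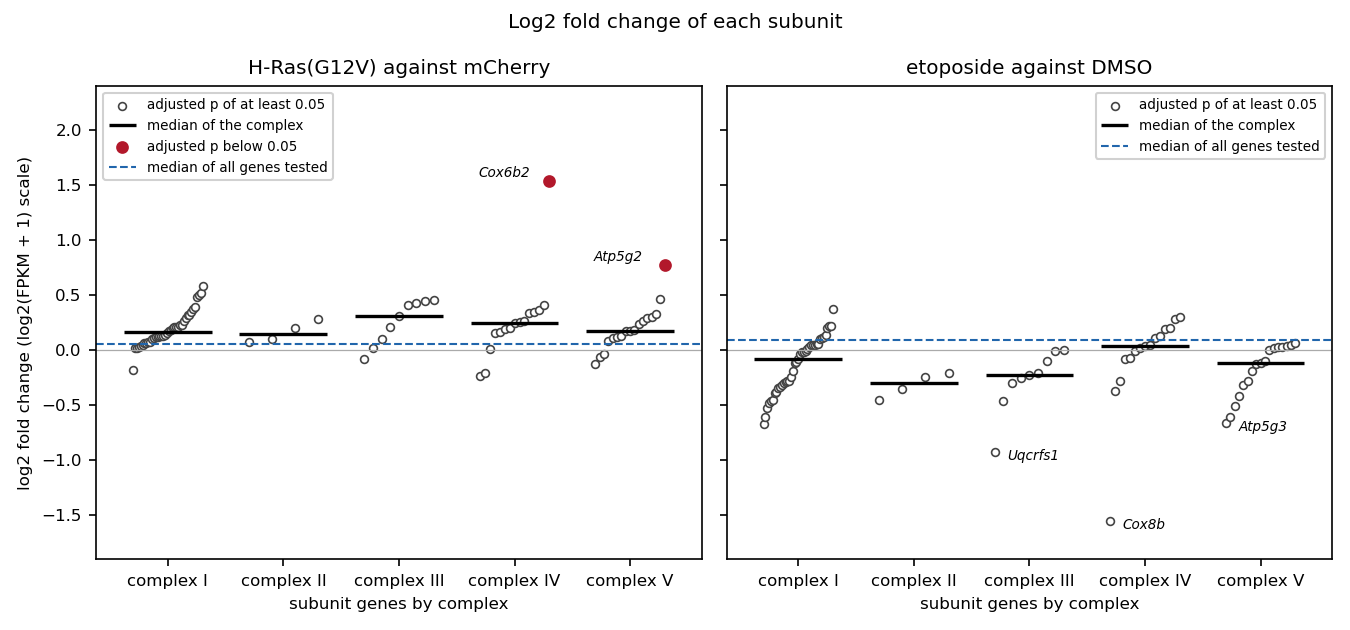
Log2 fold change (log2(FPKM + 1) scale) of each subunit by complex, for H-Ras(G12V) against mCherry and etoposide against DMSO, with a black line at the median of each complex and a dashed line at the median of all genes tested. Cox6b2 (1.54) and Atp5g2 (0.77) are the filled points, and the medians of complexes I to V lie at 0.15 to 0.31 for H-Ras(G12V) and at -0.30 to 0.03 for etoposide.

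The count of subunits that passed varied with the libraries used. It was 1 without H-Ras(G12V) library 3, mCherry library 1 or mCherry library 2, where 5.44%, 4.96% and 4.92% of all genes were called. It was 0 in the single fit of the 12 libraries, where 2.52% of all genes were called. Library 3 of the mCherry group was the highest mCherry library for 66 of 83 members, and its summed member level was 30981 FPKM, against 25692 and 24203 FPKM in mCherry libraries 1 and 2. The H-Ras(G12V) libraries summed to 29735, 31960 and 31483 FPKM, so that mCherry library 3 lay among them by this sum. As a share of all FPKM, the members took 6.44% in mCherry library 3, above every H-Ras(G12V) library (5.64%, 5.87% and 5.90%). In mCherry libraries 1 and 2 the share was 5.22% and 5.02%. Without mCherry library 3, 33 members were called, all higher in H-Ras(G12V), where 25.4% of all genes were called higher, 19.5% lower and 44.9% either way. They were 11 of 38 in complex I, 2 of 4 in complex II, 5 of 9 in complex III, 9 of 15 in complex IV and 6 of 17 in complex V. That fit rests on mCherry libraries 1 and 2, which were the most alike pair of that table. With these averaged into 1 library, 1 member was called, higher in H-Ras(G12V), where 3.08% of all genes were called higher and 5.02% either way.

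Over 16 alternatives, Cox7a1 was called in 1, the fit without mCherry library 3. It encodes the heart and muscle form of complex IV subunit 7A and had 17.8, 14.1 and 16.7 FPKM in the H-Ras(G12V) libraries, against 7.20, 6.05 and 41.8 FPKM in mCherry libraries 1 to 3. The log2 fold change was 0.34 (adjusted p = 0.740 with all libraries) and 1.17 without mCherry library 3 (adjusted p = 0.000504). Muscle markers were low in every library, with a summed level of 3.48 to 9.85 FPKM over 7 genes. Cox8a, the common form of subunit 8, had 908, 1145 and 1006 FPKM in the H-Ras(G12V) libraries, against 635, 566 and 1246 FPKM in the mCherry libraries, and its log2 fold change without mCherry library 3 was 0.76 (adjusted p = 0.00256).

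**Figure D3:**
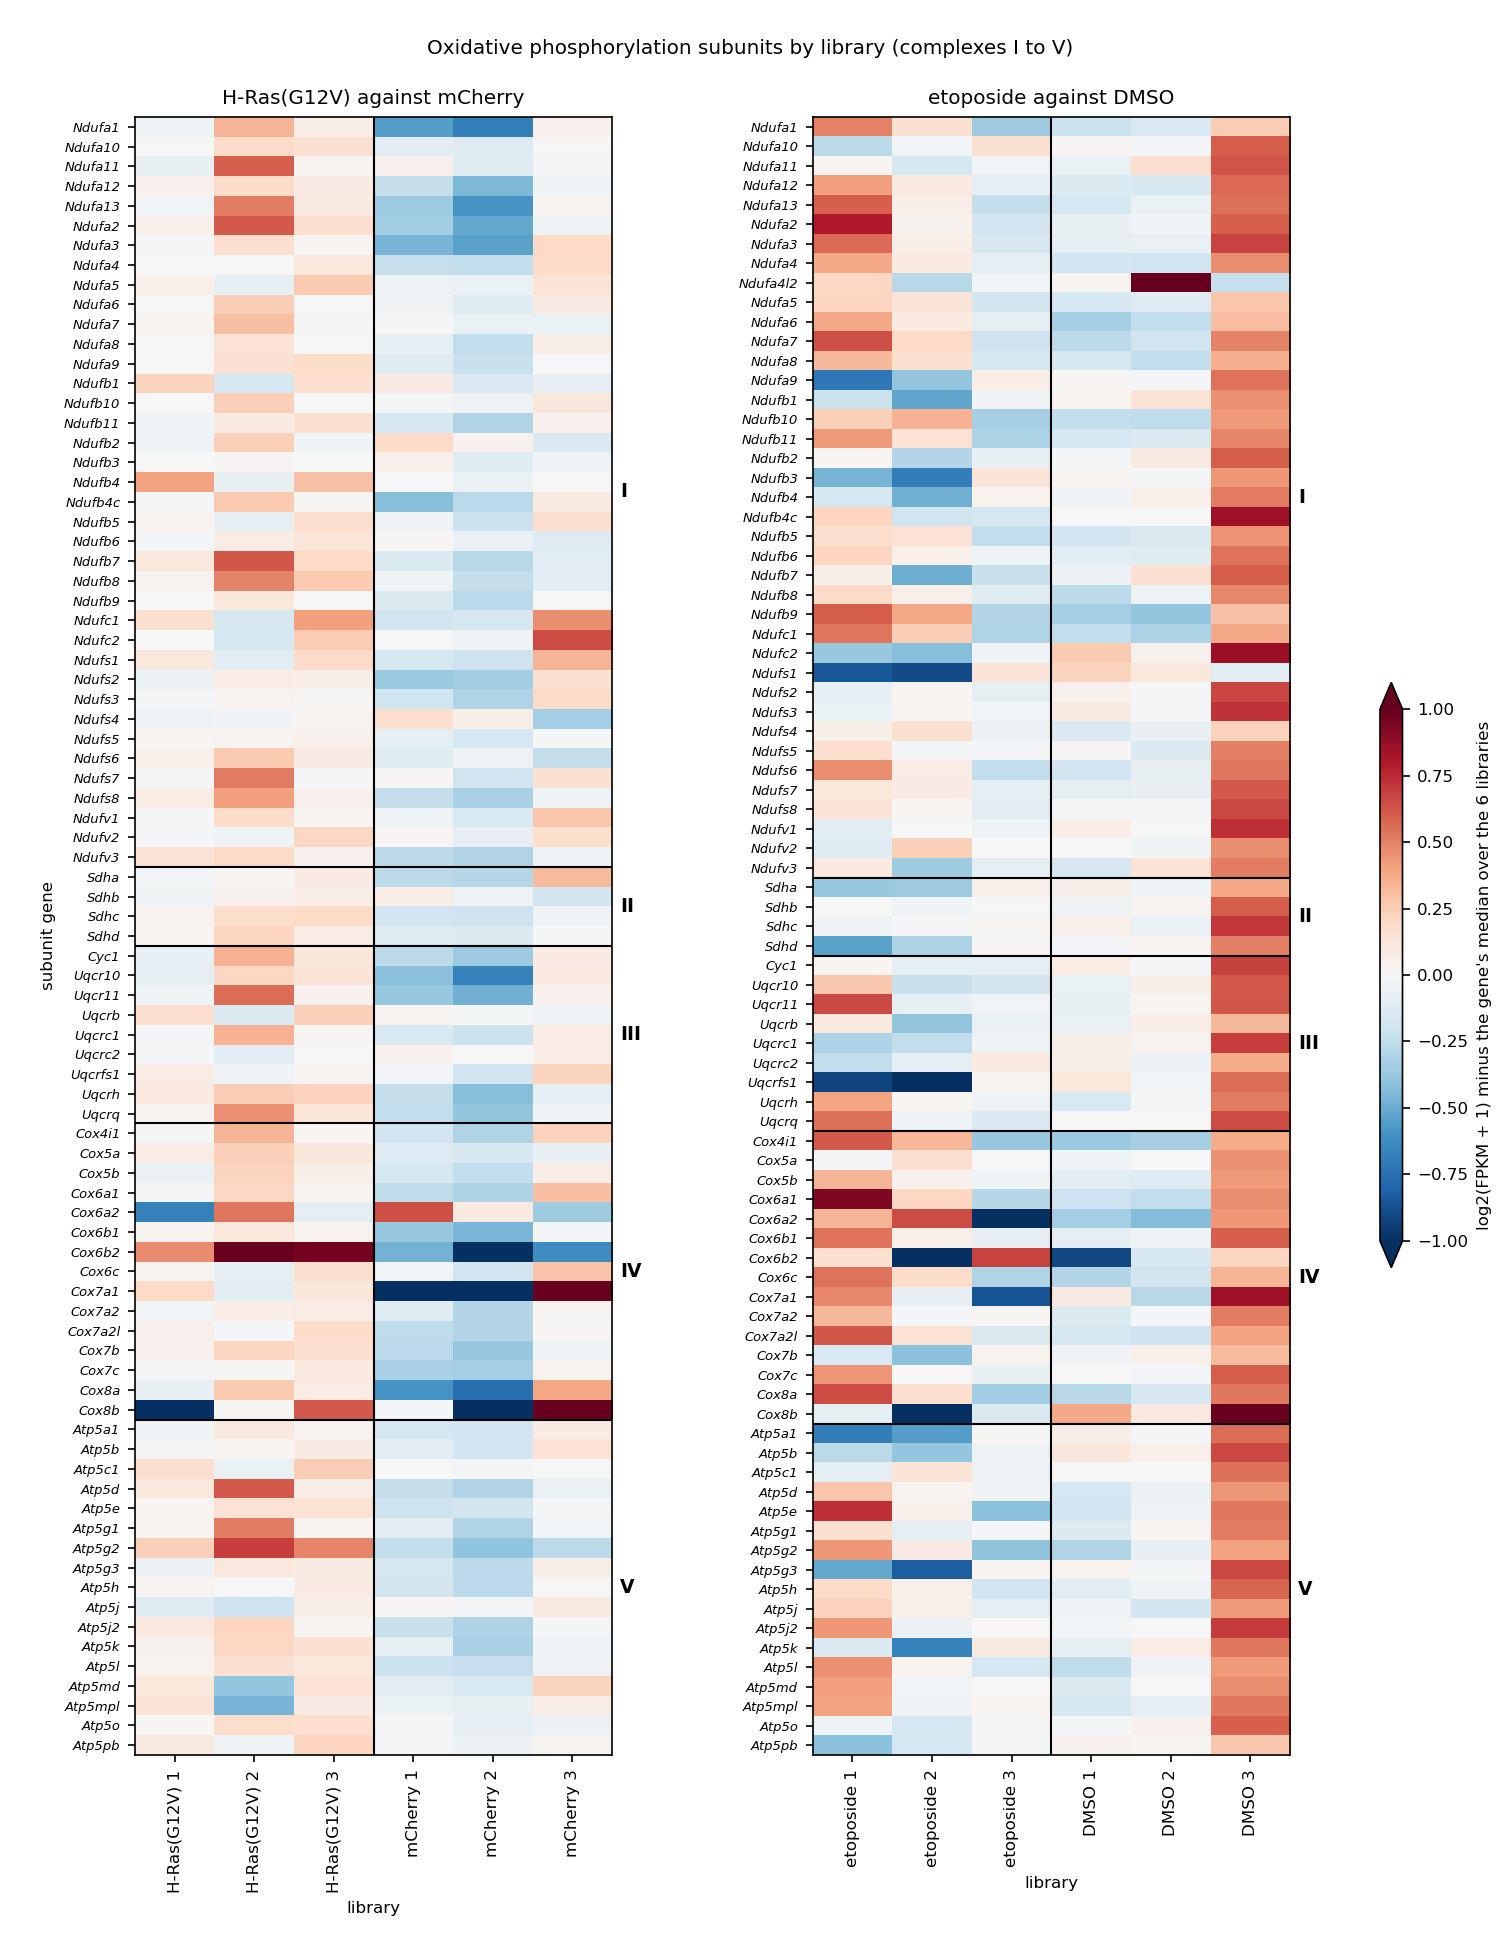
Level of each subunit in each library, as log2(FPKM + 1) minus the gene's median over the 6 libraries of its table (colour scale cut at -1 and 1, complexes I to V from top to bottom). mCherry libraries 1 and 2 are mostly blue with medians of -0.14 and -0.23, and DMSO library 3 is red for nearly all subunits with a median of 0.52.

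Marker genes of other cell types differed between the same libraries. Their counts stand beside 10.3% of all tested genes called higher and 6.67% called lower. Of 9 tested oligodendrocyte lineage markers 6 rose in the H-Ras(G12V) libraries. The list summed to 922 to 1120 FPKM there, against 229 to 763 FPKM in the mCherry libraries. Of 9 astrocyte markers 2 rose (2576 to 3716 FPKM, against 1190 to 3147 FPKM in the mCherry libraries). Of 7 neural progenitor markers 5 rose (1648 to 2076 FPKM, against 580 to 715 FPKM). Among fibroblast, meningeal and mural markers, 8 of 10 fell (60.3 to 85.9 FPKM, against 189.7 to 312 FPKM). Of 15 neuronal markers 1 rose and 2 fell (1703 to 2053 FPKM, against 2516 to 2956 FPKM). Of 3 tested microglial markers 1 rose (14.3 to 43.7 FPKM, against 4.88 to 17.5 FPKM), with Itgam and C1qa at 0 in mCherry library 3. Endothelial markers summed to 1.81 to 2.12 FPKM, against 1.51 to 5.11 FPKM, with Cldn5 at 0 in 5 of 6 libraries. The 1 endothelial marker tested was not called. No gene of the other 5 lists in this paragraph was at 0 in an H-Ras(G12V) or mCherry library. Of the muscle markers, Ckm, Tnnt2 and Myl1 were at 0 in some of these libraries. Library 3 of the mCherry group held the highest astrocyte and oligodendrocyte sums of its group, at 3147 and 763 FPKM. In bulk RNA, fewer cells of a type and less RNA per cell cannot be told apart, and the part of cell composition in the subunit levels was not tested.

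In etoposide neurons, no subunit passed. At a limma adjusted p below 0.05, 0 of 84 members were called, where 0.453% of all 12371 tested genes were called, all of them lower. At an unadjusted p below 0.05 there were 2 members, Uqcrfs1 and Cox8b, both lower, where 6.52% of all genes passed with lower levels and 13.9% either way. The log2 fold change was above 0 for 32 members and below 0 for 52 as deposited, for 14 and 70 with median-of-ratios scaling, and for 13 and 71 after scaling to a common sum. The members' median was -0.10, -0.19 and -0.20 in the same order, beside 0.09, 0.01 and -0.00 over all genes. No member had etoposide libraries all above the DMSO libraries, and 7 had them all below, where 7.64% and 8.17% of all genes did so.

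The complexes differed in their medians. In etoposide against DMSO neurons the median log2 fold change was -0.08 for complex I, -0.30 for complex II, -0.23 for complex III, 0.03 for complex IV and -0.11 for complex V. The median of complex IV was below 0 with the other scalings, at -0.05 and -0.06, and the others stayed below 0. Complex IV took 31.8%, 29.8% and 25.2% of all member FPKM in etoposide libraries 1 to 3, against 25.3%, 25.3% and 25.9% in the DMSO libraries. Complex V took 29.4%, 29.9% and 34.2% in the etoposide libraries, against 33.6%, 34.0% and 33.3% in the DMSO libraries. Etoposide libraries 1 and 2 lay outside the DMSO range for both shares, and etoposide library 3 lay just below it for complex IV and just above it for complex V.

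**Figure D4:**
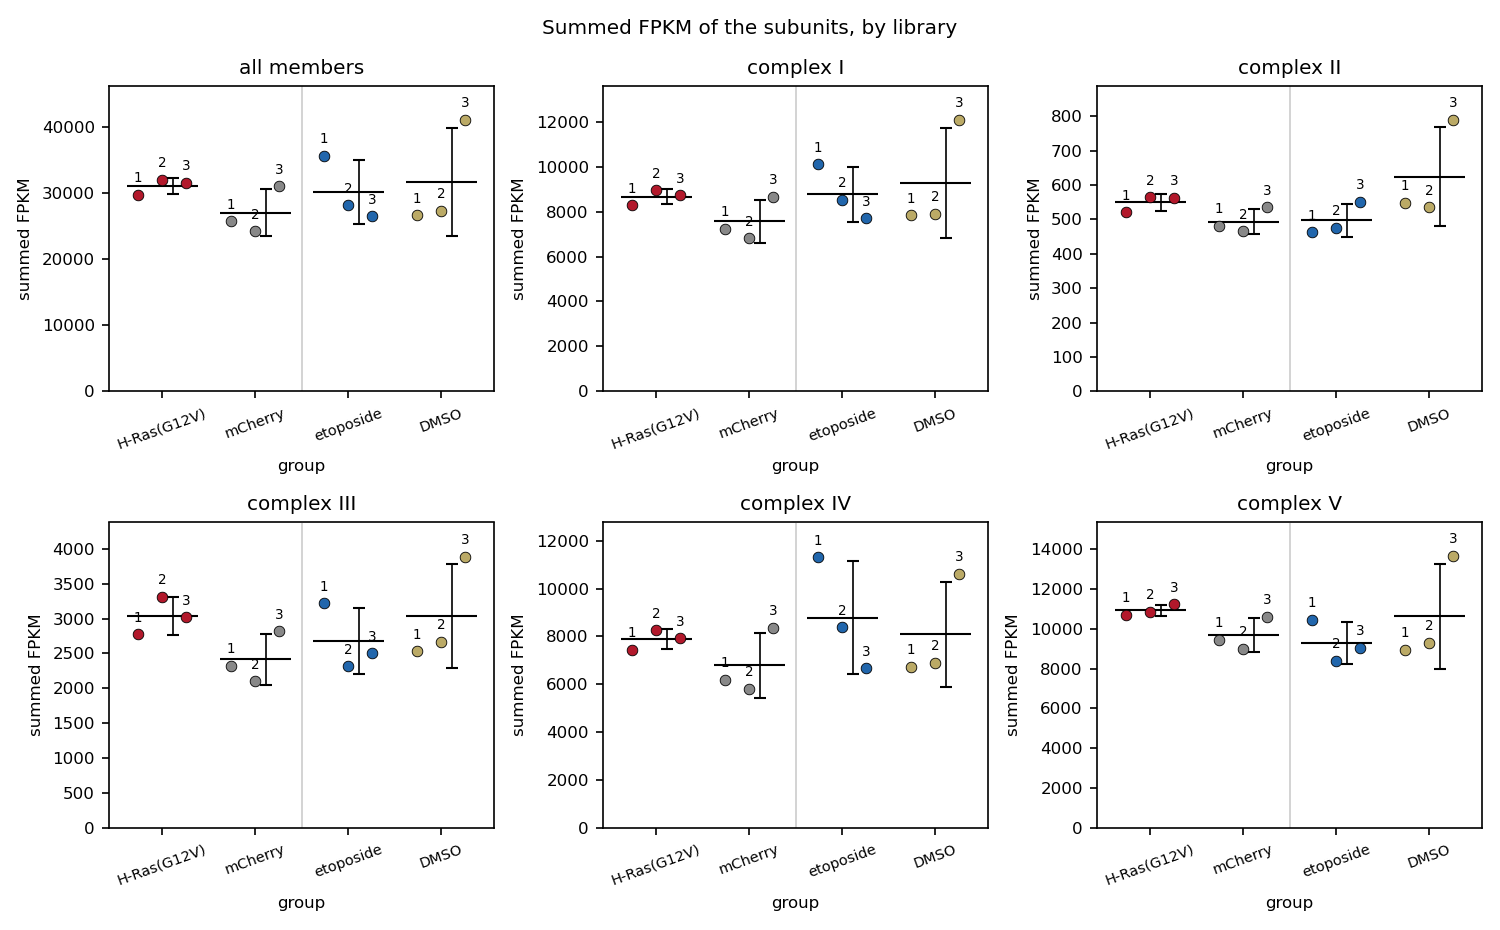
Summed FPKM of all members and of each complex, by library (points numbered by library, line at the mean, bar 1 SD, n = 3 per group). DMSO library 3 is the highest of its group in each panel, and for complex IV etoposide libraries 1, 2 and 3 lie at 11309, 8389 and 6673 FPKM, against 6740, 6909.8 and 10630.4 FPKM in DMSO libraries 1, 2 and 3.

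The spread of the etoposide and DMSO libraries was wide. DMSO library 3 was the highest DMSO library for 82 of 84 members, and the members took 7.32% of all FPKM in it, against 5.69% and 5.74% in DMSO libraries 1 and 2. The etoposide libraries gave 5.79%, 5.17% and 5.68%. DMSO library 3 lay above all etoposide libraries for 64 members. Relative to the gene medians its members were at 0.52, beside 0.02 over all genes in that library. Without DMSO library 3 the members' median turned to 0.11, beside 0.08 over all genes, with 48 above 0 and 36 below. In that fit 0 members were called, where 0.0322% of all genes were called.

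Uqcrfs1, the Rieske iron-sulfur protein that passes electrons on in complex III, had 66.7, 52.7 and 129 FPKM in etoposide libraries 1 to 3, against 136, 124 and 187 FPKM in DMSO libraries 1 to 3. Etoposide libraries 1 and 2 were below all DMSO libraries, and etoposide library 3 lay among them. The log2 fold change was -0.92 ± 0.36 (SE, adjusted p = 0.356) with all libraries and -1.29 ± 0.27 without etoposide library 3 (adjusted p = 0.00639). Ndufs1, the largest iron-sulfur subunit of complex I, had 36.8, 35.6 and 73.3 FPKM in etoposide libraries, against 78.3, 72.1 and 62.3 FPKM in DMSO libraries. It gave -0.61 ± 0.32 (adjusted p = 0.385) with all libraries and -0.95 ± 0.23 without etoposide library 3 (adjusted p = 0.0136).

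Without etoposide library 3, 5 members fell and none rose, where 13.4% of all genes were called lower, 18.4% higher and 31.8% either way. Beside Uqcrfs1 and Ndufs1 these were Atp5a1, Atp5g3 and Cox8b. Atp5a1, the alpha subunit of the ATP synthase, had 301, 332 and 491 FPKM in etoposide libraries, against 506, 483 and 719 FPKM in DMSO libraries (-0.82 without etoposide library 3, adjusted p = 0.0485). Atp5g3 had 486, 392 and 702 FPKM in etoposide libraries, against 712, 685 and 1094 FPKM in DMSO libraries (-0.89, adjusted p = 0.0498). Cox8b, the heart and muscle form of subunit 8, was near its lower limit, at 2.59, 0 and 2.48 FPKM in etoposide libraries, against 4.0, 3.11 and 14.4 FPKM in DMSO libraries (-1.85, adjusted p = 0.0451). Atp5a1 and Atp5g3 were close to the threshold of 0.05.

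Leaving out DMSO library 3 as well, a choice made after seeing the data, gave 5 members higher and 5 lower, where 22.2% of all genes were called higher, 14.1% lower and 36.3% either way. Each group then holds 2 libraries. The lower members were Ndufs1, Uqcrfs1, Atp5a1, Ndufb3 and Atp5g3, and 4 of these are among the 5 above. The higher members were Ndufb9, Cox6a2, Cox4i1, Ndufc1 and Ndufb10. Cox4i1, the common form of subunit 4 of complex IV, had 1552, 1281 and 783 FPKM in etoposide libraries 1 to 3, against 785, 805 and 1315 FPKM in DMSO libraries 1 to 3 (log2 fold change 0.83 without both libraries 3, adjusted p = 0.0311). Ndufb9, an accessory subunit of complex I, had 459, 393 and 245 FPKM in etoposide libraries, against 238, 229.8 and 369 FPKM in DMSO libraries (0.86, adjusted p = 0.0187). For both, DMSO library 3 lay near etoposide libraries 1 and 2, and etoposide library 3 near DMSO libraries 1 and 2.

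**Figure D5:**
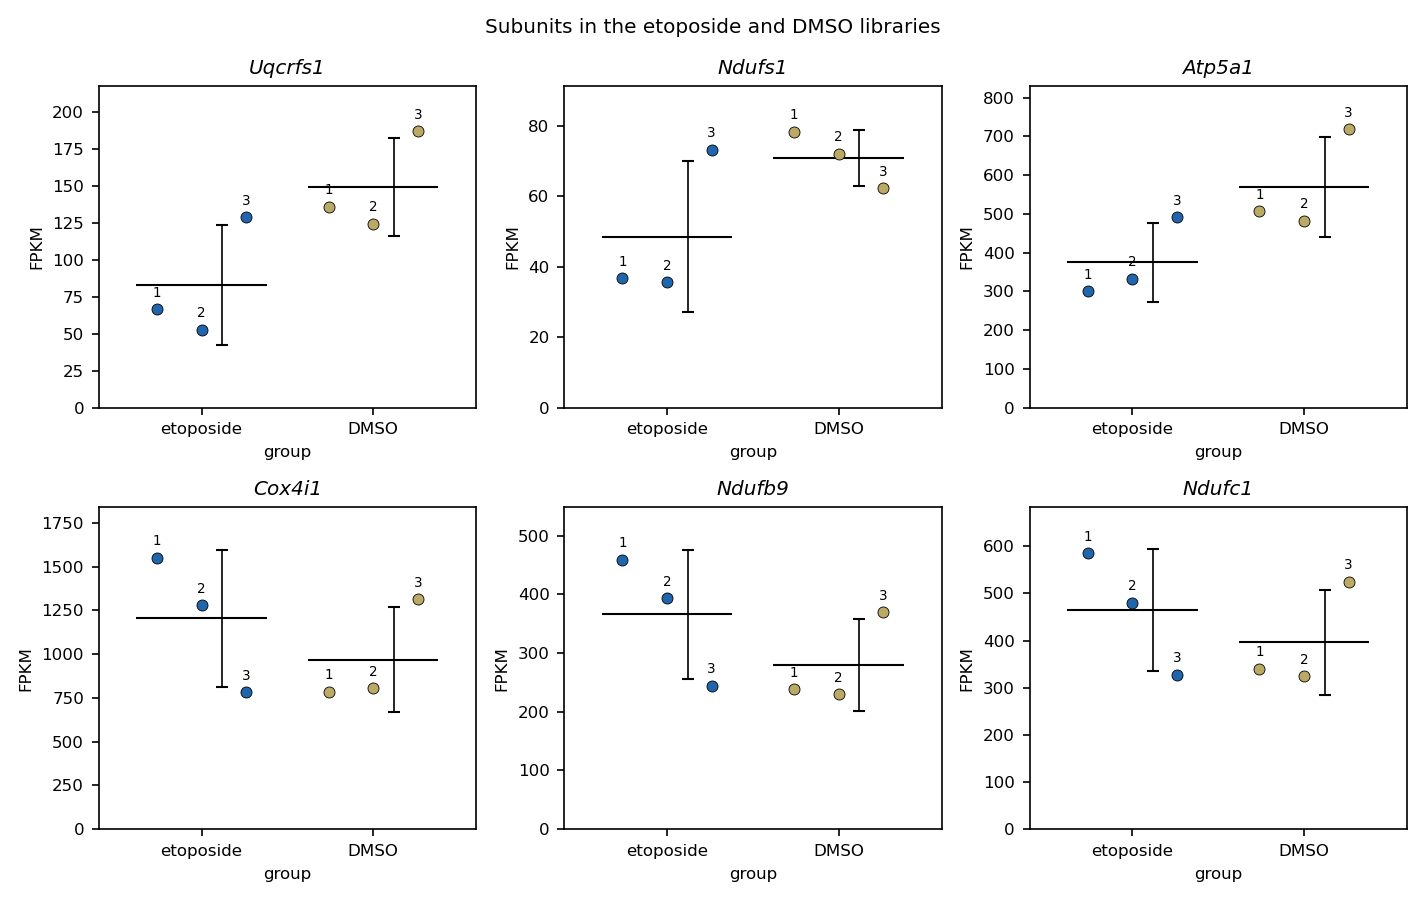
FPKM of 6 subunits in the etoposide and DMSO libraries (points numbered by library, line at the mean, bar 1 SD, n = 3 per group). Uqcrfs1, Ndufs1 and Atp5a1 are lowest in etoposide libraries 1 and 2, while for Cox4i1, Ndufb9 and Ndufc1 etoposide library 3 sits with DMSO libraries 1 and 2.

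The paralogue shares differed among the etoposide libraries. Atp5g2 made up 30.0%, 29.1% and 16.3% of the c-subunit FPKM in etoposide libraries 1 to 3, against 17.5%, 19.8% and 18.3% in DMSO libraries. Atp5g3 made up 42.7%, 42.6% and 60.2% in etoposide libraries, against 60.9%, 56.8% and 60.0% in DMSO libraries. The groups overlapped for both shares (exact two-sided permutation p = 0.4 and 0.3). The third c-subunit gene, Atp5g1, made up 27.3%, 28.3% and 23.5% in etoposide libraries, against 21.6%, 23.4% and 21.7% in DMSO libraries. Its groups did not overlap, and the exact two-sided permutation p was 0.1 (0.333 adjusted over the 10 shares compared in this table). Cox7b2 (0.353% in etoposide and 0.0639% in DMSO neurons on average) and Cox8b (0.156% and 0.595% in the same order), both minor parts of their sets, also reached 0.1, the smallest p possible. Cox6b2 had 15.8, 3.99 and 22.9 FPKM in etoposide libraries, against 6.96, 12.4 and 16.4 FPKM in DMSO libraries, with a log2 fold change of 0.03 (adjusted p = 0.98). Its share of the Cox6b FPKM overlapped between the groups. The paralogues Cox4i2, Cox6a2, Cox7b2, Cox8b and Ndufa4l2, made up under 1% of their set on average in every group. Cox7a1 averaged 3.47% of its set in H-Ras(G12V), 4.05% in mCherry, 1.78% in etoposide and 2.44% in DMSO neurons, and Cox6b2 3.57%, 1.52%, 1.41% and 1.13% in the same order.

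The markers of other cell types also differed between the etoposide and DMSO libraries. Their counts stand beside 0.453% of all tested genes called, all of them lower. Neuronal markers summed to 992, 2332 and 3400 FPKM in etoposide libraries 1 to 3, against 3025, 3015 and 3050 FPKM in DMSO libraries, and 0 of 15 were called. Of 8 tested oligodendrocyte lineage markers 3 fell, and Mag was at 0 in etoposide library 3. The list summed to 77.9 to 220 FPKM, against 539 to 908 FPKM in the DMSO libraries. Astrocyte markers summed to 622 to 978 FPKM, against 1031 to 1599 FPKM, and 0 of 9 were called. Fibroblast, meningeal and mural markers summed to 156 to 636 FPKM, against 100 to 436 FPKM, and 0 of 10 were called. Microglial markers summed to 12.5 to 116 FPKM, against 5.54 to 38.4 FPKM, and 0 of 4 were called. Neural progenitor markers summed to 230.3 to 864 FPKM, against 249.8 to 306 FPKM, with 1 of 6 lower. Their part in the subunit levels was not tested.

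The effects of H-Ras(G12V) and etoposide on the subunits did not differ at the threshold. In the interaction contrast over all 12 libraries, which subtracts the etoposide effect from that of H-Ras(G12V), 0 of 83 members passed, where 2.78% of all 12179 tested genes did and 2.5% had a positive difference. At an unadjusted p below 0.05 there were 9 members, all with a positive difference, where 9.8% of all genes passed with a positive difference and 17.3% either way. The members' median difference was 0.38, beside -0.07 over all genes, and 0.11 without both libraries 3 of the etoposide table. The lowest adjusted p was 0.167, for Ndufb7, an accessory subunit of complex I, with a difference of 0.93. Without etoposide library 3, 9 members passed, all with a positive difference, where 9.75% of all genes passed with a positive difference and 21.4% either way. By sign, 48 members were above 0 with H-Ras(G12V) and below 0 with etoposide, 28 above 0 in both, 4 below and then above, and 3 below 0 in both. Across the 83 members, which share their libraries, the log2 fold changes of the models had a Pearson r of 0.24 and a Spearman rho of 0.12.

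Values by coding length stand beside the log2 fold changes. Most subunits are small, with a median coding length of 408 bases in the members of the H-Ras(G12V) table, and 63 of 79 with a value lay in the shortest of 5 length bins with near-equal numbers of tested genes. In that bin the median log2 fold change of all genes in H-Ras(G12V) against mCherry neurons was 0.15, beside 0.21 for the members in it. It was -0.04 in the longest bin, which held no member. In etoposide against DMSO neurons the median in the shortest bin was 0.10 for all genes and -0.01 for the 64 members in it. Members of the next 3 bins, with 7, 6 and 3 genes, had medians of -0.29, -0.30 and -0.61, where all genes of those bins had 0.15, 0.13 and 0.08. The part of length in these differences was not tested.

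Fold changes were also set beside the promoter motifs, with the difference between members with and without a match not tested. The 17 members with an NRF1 match had a median log2 fold change of 0.17 in H-Ras(G12V) against mCherry neurons, and the 51 without 0.21. In etoposide against DMSO neurons the medians were -0.19 and -0.03 in the same order. Of the members above, Atp5g2 and Atp5g3 hold an NRF1 match and Cox6b2 holds none, as printed above.

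Genes that build, supply or control the respiratory chain were set beside the subunits, and their counts in H-Ras(G12V) neurons stand beside 10.3% of all tested genes called higher. Of 47 assembly factors, which help to put the complexes together, 1 rose in H-Ras(G12V) neurons and none fell. It was Coa4, a complex IV assembly factor of the intermembrane space, with 8.25, 10.5 and 10.1 FPKM in the H-Ras(G12V) libraries, against 4.27, 4.75 and 3.84 FPKM in mCherry libraries 1 to 3 (a log2 fold change of 1.00 ± 0.14, adjusted p = 0.00724). Of 14 tricarboxylic acid cycle genes 2 rose, Suclg2 (0.79, adjusted p = 0.0198) and Suclg1 (0.47, adjusted p = 0.0403), subunits of succinyl-CoA ligase. Of 9 tested carriers 2 rose. Slc25a5, an ADP/ATP carrier of the inner membrane, had 492, 547 and 596 FPKM in H-Ras(G12V) libraries, against 246, 213 and 370.4 FPKM in mCherry libraries (1.01 ± 0.22, adjusted p = 0.0239), and it also passed in the difference of the effects (1.54 ± 0.35, adjusted p = 0.0325). Etfb, a subunit of the electron transfer flavoprotein, had a log2 fold change of 0.69 (adjusted p = 0.0281).

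None of 15 biogenesis regulators passed in either comparison. Their median log2 fold change was 0.01 in H-Ras(G12V) and 0.44 in etoposide neurons, with 9 and 12 of 15 above 0. In the difference of the effects 1 of 15 passed, Polg, which encodes the catalytic subunit of the mitochondrial DNA polymerase and was named after its values were seen. It averaged 16.3 FPKM in H-Ras(G12V) and 10.0 FPKM in mCherry neurons, and 6.49 FPKM in etoposide and 11.3 FPKM in DMSO neurons (difference 1.36 ± 0.29, adjusted p = 0.0257). The coactivator Ppargc1a had 7.43 ± 1.70 FPKM in H-Ras(G12V) and 7.64 ± 3.44 FPKM in mCherry neurons, and 4.64 ± 2.29 FPKM in etoposide and 5.63 ± 2.16 FPKM in DMSO neurons (SD, n = 3 each). Nrf1 had log2 fold changes of 0.20 in H-Ras(G12V) and 0.23 in etoposide neurons, Gabpa 0.31 and 0.67, and Tfam, which packages mitochondrial DNA, -0.08 and 0.44. Cycs, which encodes cytochrome c, had 0.12 and -0.44 in the same order. Of 78 mitochondrial ribosomal protein genes 8 rose in H-Ras(G12V) neurons, the same share as the 10.3% of all genes, among them Mrpl22 (0.48, adjusted p = 0.0249), Mrps10 and Mrpl39, with a list median of 0.21. Of 72 cytosolic ribosomal protein genes 24 rose, among them Rpl27a (0.80, adjusted p = 0.0152), Rpl27 and Rpl19, with a list median of 0.57. Of 11 targets of the hypoxia-inducible factor 3 rose, Adm, Vegfa and Egln3, and of 23 mitochondrial import genes 0 passed. In etoposide neurons no gene of these lists passed, and the list medians were 0.59 for cytosolic ribosomal proteins, 0.12 for mitochondrial ribosomal proteins and -0.41 for tricarboxylic acid cycle genes, beside -0.10 for the subunits.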

How the data were processed

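The authors deposited 1 table per model with FPKM per gene and library, per the file headers, with 2 decimals. HISAT, Bowtie2, RSEM and the build mm9 are named in the submitters' processing notes, with no version or role. Per the labels' protocols, oligo-dT beads were used to enrich mRNA. Depth is not given, so no interval or floor was computed. Libraries were grouped by title. The tables were treated as normalised separately, and each effect was tested within its table.

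The log2(FPKM + 1) values of every gene averaging 1 FPKM or more in a table entered a two-sided limma test (version 3.58.1, R 4.3.3, eBayes with trend), with Benjamini-Hochberg adjustment over all of them and a threshold of 0.05. The script was tested on simulated data. Fold changes on this scale understate the change of low genes. The interaction contrast took genes above that mean in both tables, and its spread was pooled over the 4 groups. The 2 models share no control libraries. Alternatives were pseudocounts of 0.1 and 5, no filter and a mean of 5 FPKM, 2 scalings, eBayes without trend, the replicate number as a block, a single fit, mCherry libraries 1 and 2 averaged, each library left out, and, added after seeing the data, etoposide and DMSO libraries 3 left out together. Coding lengths, used in place of the planned protein lengths, are from GENCODE M21, and promoters from RefSeq on GRCm38.p6, another build than mm9, so both were matched by symbol only.

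The members and gene lists were chosen with earlier results of these data known. Genes named singly are called members, the extremes of each complex, paralogues, core subunits and up to 3 called genes of each list, and the other members named with values (Uqcrh, Ndufa2, Cox7a1, Cox8a, Ndufb7 and those of fits without a library) were picked after their values were seen.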

Additional observations from a re-analysis of the deposited data

How the results depend on the processing

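For H-Ras(G12V) against mCherry, the count of 2 members called was 2 with either pseudocount, filter and scaling, and without the trend. It was 0 in the single fit of the 12 libraries, 1 with mCherry libraries 1 and 2 averaged, and between 1 and 33 when each library was left out in turn. The members' median of 0.19 was 0.046 after scaling to a common sum.

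Without DMSO library 3 the etoposide median changed sign, to 0.11, within a range of -0.21 to 0.11 over the libraries left out. For etoposide against DMSO the count of 0 ranged from 0 to 5 when each library was left out and was 10 without both libraries 3, where the median of -0.10 became 0.19. For the difference between the effects the count of 0 ranged from 0 to 9 and was 9 without both libraries 3, where the median of 0.38 became 0.11. The cause was not tested. Over all genes, the 2161 calls for H-Ras(G12V) were 307 in the single fit, 639 with the mCherry libraries averaged and 496 to 5716 with a library left out. The 56 for etoposide were 175 in the single fit, 22 at a mean of 5 FPKM, 4524 without both libraries 3 and 4 to 3938 with a library left out. The 339 for the difference were 599 with no filter, 161 at a mean of 5 FPKM, 2957 without both libraries 3 and 183 to 2603 with a library left out.

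The labels do not say whether the numbers of the libraries mark pairs. With 3 libraries a group, the correlations below cannot decide this. Same-numbered libraries had correlations of deviations of -0.04, 0.03 and 0.12 for H-Ras(G12V) and mCherry and of -0.26, -0.17 and -0.15 for etoposide and DMSO. With the replicate number as a block, the members called stayed at 2, 0 and 0, and the calls over all genes were 1681, 12 and 267, against 2161, 56 and 339 without it.

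With 3 libraries a group and no depth given, small differences cannot be told from the spread.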
